A study of Mus musculus with 12 samples.

Results

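The 1890 peaks described here are the m6A peaks of mouse lung RNA whose assigned transcript is annotated as a processed pseudogene. They were chosen by that biotype alone, whatever region of the transcript was named, and number 979 of the 27292 peaks of the ovalbumin (OVA) list and 911 of the 26102 peaks of the PBS list. A processed pseudogene is a copy of a messenger RNA that was reverse transcribed and inserted back into the genome, so it usually lacks introns and its parent's promoter. Because a recent copy is nearly identical to its parent, a short sequencing read may fit both places, and a copy that lies inside or beside another gene can be transcribed as part of that gene's RNA. N6-methyladenosine (m6A) is a methyl mark that a nuclear methyltransferase complex places on adenosines of messenger and noncoding RNA, most often near stop codons and in 3′ untranslated regions.

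The study compared lung m6A in a mouse model of acute allergic asthma with that in control mice. All were female BALB/c mice of 6 to 8 weeks. The asthma group was injected with OVA and aluminum hydroxide on days 0 and 7 and inhaled a 3% OVA aerosol for 30 min a day from day 14 to day 20, the control group received PBS in place of both, and lungs of both groups belong to day 21. From 3 mice of each group, fragmented RNA depleted of ribosomal RNA was sequenced with pull-down by an m6A antibody (IP) and without it (input), which gave 12 libraries. Each group has 1 deposited peak list, so there are no values of single mice and no replicate check on any difference between the lists, and how the 3 mice were combined is not stated. The lists give a fold enrichment, computed as IP signal over input signal, and the log10 of a p value and of a false discovery rate (FDR), but no read counts, so the depth behind a peak is unknown. Below, OVA and PBS stand for these lists where values are given. Fold enrichments were compared only within a list, and values of both lists are set side by side without a test. Intervals are 95% intervals that cover counting error only, since peaks of 1 list are not replicates.

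The members made up 3.59% of the OVA list (interval 3.37 to 3.81) and 3.49% of the PBS list (3.27 to 3.72), so the pseudogene share was about the same in both groups. An FDR under 0.05 was reached by 951 OVA members, or 97.1%, beside 98.1% of all OVA peaks, and by 874 PBS members, or 95.9%, beside 97.8% of all PBS peaks. An overlap with a peak of the other list was found for 73.5% of the OVA members, beside 80.6% of all OVA peaks, and for 79.3% of the PBS members, beside 85.5% of all PBS peaks. The peak had been called on the assigned pseudogene itself for 39.5% of the OVA members, beside 77.5% of all OVA peaks called on their assigned gene, and for 38.1% of the PBS members, beside 77.2% of all PBS peaks. The last of these differences is the largest, and it divides the members into peaks that lie on pseudogenes and peaks that lie on other genes.

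The OVA members were assigned to 680 pseudogenes and the PBS members to 638. Of these, 523 were in both lists, which is 76.9% of the OVA pseudogenes and 82.0% of the PBS pseudogenes, and 795 were in either. Over the assigned genes of all peaks, 87.5% of the OVA genes and 91.0% of the PBS genes were in both lists. The intervals were 73.6 to 79.9% for the OVA pseudogenes and 78.8 to 84.8% for the PBS pseudogenes. For all assigned genes they were 86.9 to 88% in OVA and 90.6 to 91.5% in PBS, and the difference was not tested. A single peak was assigned to 468 of the OVA pseudogenes and 452 of the PBS pseudogenes, and no pseudogene had more than 5. By symbol, 506 OVA and 485 PBS pseudogenes could be found in the RefSeq annotation of GRCm38, and all of them lay at the RefSeq position, so the deposited coordinates are those of that build. Members were on every autosome and on the X chromosome. Their share was highest on X, with 39 of 702 OVA peaks (5.56%) and 39 of 691 PBS peaks (5.64%), and lowest on chromosome 7 in OVA (2.42%) and on chromosome 9 in PBS (2.44%). None of the 11 OVA and 18 PBS peaks of the mitochondrial genome was a member.

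Each list names both the gene on whose exons a peak was called and the transcript that was assigned to the peak afterwards. These agreed for 387 OVA members (interval of the share 36.5 to 42.6%) on 319 pseudogenes and for 347 PBS members (35.0 to 41.3%) on 283 pseudogenes. The other 592 OVA members had been called on 402 other genes, and the other 564 PBS members on 386 other genes, of which 345 were in both lists. RefSeq lists the called gene as protein-coding for 560 of those OVA members (94.6%) and 528 of those PBS members (93.6%). Most members are therefore peaks of messenger RNAs that carry the name of a pseudogene. Members minus all other peaks, the share called on the assigned gene differed by -39.4 percentage points in OVA (interval -42.4 to -36.2) and -40.5 in PBS (-43.6 to -37.3). Peaks assigned to lincRNA and antisense transcripts lay between, while 95.9% of those assigned to retained-intron transcripts in each list were called on their assigned gene. For lincRNA transcripts the share was 61.0% in OVA and 59.0% in PBS, and for antisense transcripts it was 61.2% and 58.9%.

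Peaks called on other genes were mostly far from the pseudogene whose name they carry. Only 54 of 592 in OVA (9.12%) and 38 of 564 in PBS (6.74%) touched the pseudogene transcript with their genomic span, introns included. The gap of the rest had a median of 13123 bp in OVA and 13284 bp in PBS, and was over 10000 bp for 59.9% and 60.3% of them. It was over 100000 bp for 21 OVA and 26 PBS peaks. The peak lay upstream of the assigned transcript's start in 78.4% of these OVA cases and 77.9% of these PBS cases. Where RefSeq gives a position of the called gene, 96.9% of the peaks in each list lay on it. The assigned pseudogene was inside the called gene's RefSeq span for 199 of 585 OVA peaks (34.0%) and 178 of 554 PBS peaks (32.1%), and wholly outside it for 65.3% and 67.7%. Counted by peak, nested pseudogenes were thus the smaller share, and for most peaks the assigned pseudogene lay beyond the ends of the called gene.

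The annotated regions followed the same division. Of the peaks called on their pseudogene, all but 3 of 387 in OVA and 2 of 347 in PBS were annotated to an exon. Of the peaks called on other genes, 71.6% in OVA and 73.9% in the PBS list were annotated to a 3′ UTR, 26.0% and 24.3% to an exon, and 2.36% and 1.77% to a 5′ UTR. Taken as 1 group, the members had a 3′ UTR share of 43.6% in OVA and 46.0% in PBS, beside 53.0% of all other peaks in each list. The 5′ UTR share was 1.43% in OVA and 1.10% in PBS, beside 12.0% and 11.8% of all other peaks. The 5′ UTR difference was -10.6 percentage points in OVA (interval -11.3 to -9.53) and -10.7 in PBS (-11.3 to -9.67). Of the peaks called on the pseudogene, 0 of 387 in OVA and 0 of 347 in PBS were annotated to a 5′ UTR. A pseudogene transcript has no annotated coding sequence and so no UTR of its own. The region shares of the members as 1 group are therefore partly fixed by the annotation.

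Fold enrichments of the members were close to those of the other peaks of their list. The median was 6.16 (quartiles 3.27 and 11.8) in OVA, beside 5.57 for all other OVA peaks, and 6.17 (3.06 and 11.4) in PBS, beside 5.43. Peaks called on the pseudogene had a median of 6.34 in OVA and 6.42 in PBS, and peaks called on other genes 6.03 and 5.87. Size separated these groups more than enrichment did. The median genomic span was 206 bp in OVA and 203 bp in the PBS list for peaks called on the pseudogene, and 405 and 375 bp for peaks called on other genes, beside 391 and 389 bp for all other peaks. These spans include introns. The median exonic length was 205 bp in OVA and 202 bp in PBS for peaks called on the pseudogene, and 332 and 330 bp for peaks called on other genes. More than 1 exonic block was found in 2.07% of the OVA and 1.73% of the PBS peaks called on the pseudogene, and in 23.1% and 18.3% of those called on other genes. A peak on a transcript with 1 exon can have only 1 block, so the block shares depend on the exon models.

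Peaks called on the pseudogene mostly sat on transcripts with 1 exon, the form a retrocopy takes: 349 of 387 in OVA and 310 of 347 in PBS. Each peak spanned a median of 24.2% of the pseudogene's length in OVA and 20.4% in PBS. The midpoints leaned to the 3′ side. With the pseudogene cut into 5 equal parts from its 5′ end, the parts held 45, 59, 91, 105 and 87 OVA peaks and 37, 61, 91, 83 and 75 PBS peaks. RefSeq lists 262 of the 319 OVA pseudogenes and 233 of the 283 PBS pseudogenes as pseudogenes, and 15 and 14 as transcribed pseudogenes. It lists the same 4, Gm12250, Gm36298, Gm10509 and AA414768, as protein-coding in both lists, and Gm34144 as a long noncoding RNA. These last 5 were singled out after their values were seen, apart from Gm12250.

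Gm12250 (ENSMUSG00000082292) was the member with the lowest p in OVA. RefSeq gives it the synonym Irgb10, an interferon-inducible immunity-related GTPase that acts on the membranes of intracellular pathogens. Its peak, chr11:58187738-58189012, had the same coordinates in both lists and ran over the whole annotated transcript. The fold enrichment was 49.2 in OVA and 43.4 in PBS, where it was among the 5 members of highest enrichment. The deposited log10 p was -158 in PBS, and in the OVA list the p was given as 0. AA414768, on the X chromosome, had a peak at chrX:12937260-12938008 with a fold enrichment of 39.6 in OVA and 22.9 for the overlapping peak of the PBS list. The PBS list had a further AA414768 peak, chrX:12938067-12938128, with 2.63 and no OVA counterpart. The peak of Gm10509 covered nearly all of its transcript, with 12.6 in OVA and 11.2 in PBS. Gm36298 differed in how its signal was divided: OVA had 4 peaks with enrichments from 2.1 to 5.84, and PBS had 2 that overlapped them, of 10.4 and 4.56.

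Of the remaining peaks with the lowest p among those called on the pseudogene, Gm20056 stood out by its absence from the PBS list. Its OVA peak, chr16:32408535-32409054, covered the whole pseudogene with a fold enrichment of 11.8 and a log10 p of -3410, and no PBS peak of any gene overlapped it. Gm43802 lies under a peak of Gbp7, an interferon-inducible guanylate-binding GTPase gene, and its own peak chr3:142547881-142548518 was in both lists, with 14.2 in OVA and 9.76 in PBS. Gm9800 had a peak of the same coordinates in both lists, chr14:8799999-8800307, at 3.2 in OVA and 3.78 in PBS. Fth-ps2, a copy of the ferritin heavy chain gene, whose product stores iron, had a peak over most of its length, chr6:39653449-39653879 in PBS, at 10.2, and 12.3 in OVA. Gm12960 had 4.34 in OVA and 6.37 for a longer PBS peak, chr4:111807594-111808098. Gm16574 had peaks of both kinds. The one called on the pseudogene, chr17:12818822-12819537, had the same coordinates in both lists and enrichments of 9 in OVA and 9.21 in PBS. The other had been called on Airn, the noncoding RNA that silences Igf2r in imprinting, at 8.86 in OVA and 2.19 in PBS. All of these but Gm20056 were thus found in both groups.

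Some signal was counted under several names. Of the peaks called on the pseudogene, 23 of 387 in OVA and 22 of 347 in the PBS list shared bases with a peak of the same list called on another gene identifier. The pairs named here were singled out after their values were seen. The Gm43802 peak lay inside a Gbp7 peak, chr3:142547550-142548686 in OVA, that had an enrichment of 12.2 beside the 14.2 of Gm43802, and in the PBS list 10.1 beside 9.76. Fbl-ps2, a copy of the fibrillarin gene, whose product methylates ribosomal RNA, had 4.24 beside 4.17 of the overlapping Tulp4 peak in OVA and 4.50 beside 4.32 in PBS. Kpna2-ps, a copy of an importin alpha gene, had 3.27 beside 2.93 for Med20, a Mediator subunit gene, in OVA and 2.74 beside 2.82 in PBS. Gm15937 had 5.48 beside 5.29 for Ptger4, a prostaglandin E receptor gene, in OVA and 4.44 beside 4.66 in PBS. In these 4 pairs both names of the shared bases carried similar enrichments, but other pairs were further apart. Gm37493 had 20 beside 11.8 for Gm37933 in OVA, but 9.87 beside 10.4 in PBS. Gm15470 had 22 beside 13.2 for AW146154 in PBS, but 11.8 beside 12 in OVA. Gm15539 had 2.7 beside 9.24 for Gm15537 in OVA and no such pair in PBS.

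Gm49760 is a pseudogene for which a stretch of peak sequence could be read, because a RefSeq promoter window, that of the gene model LOC115488002, lies over one of its peaks, and it was singled out for that after its values were seen. Its transcript runs on the plus strand over chr12:18648214-18649998. In the OVA list it had 3 peaks, with fold enrichments of 14.9, 15.4 and 9.24 from 5′ to 3′, and in the PBS list 4 peaks, with 2.78, 16.8, 27.6 and 13.3. All 7 overlapped a peak of the other list. The sequence below, from RefSeq on GRCm38.p6, plus strand, is the part of the PBS peak chr12:18648748-18649076 that the window covers, chr12:18648748-18649039, or 292 bases. The reference is C57BL/6J, while the mice are BALB/c. Capitals mark the 16 letters AGAACACATACTGGAG, which recur 3 times at steps of 84 bases, the spacing of repeated C2H2 zinc fingers with their linkers in a coding sequence.
Gm49760: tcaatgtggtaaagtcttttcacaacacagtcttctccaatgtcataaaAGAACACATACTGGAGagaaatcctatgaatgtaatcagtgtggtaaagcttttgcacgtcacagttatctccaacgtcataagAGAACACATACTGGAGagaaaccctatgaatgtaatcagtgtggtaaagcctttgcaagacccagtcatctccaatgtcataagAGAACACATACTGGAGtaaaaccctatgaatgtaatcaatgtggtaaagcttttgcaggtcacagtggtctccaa
The letters were chosen as the longest run present at least 3 times in this stretch, so its 3 copies were fixed in advance. On either strand these letters are in 3 of the 32851 RefSeq promoter windows (0.00913%), and 3 copies are in 1 of them, this one (0.00304%). The windows are promoter regions, so these shares do not measure how rare the letters are among peaks. The letters GGAC were also looked for, and the stretch held 0 copies on either strand, while 87.7% of the windows held them. GGAC covers only some forms of RRACH (R is A or G, H is A, C or T), the m6A motif the paper found in both groups. Another form, GAACA, lies within the marked letters, so the motif is not absent from the stretch. Copies of the other forms were not counted.

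Among the members called on other genes, the lowest p belonged to 3′ UTR peaks found in both lists. The peak assigned to Gm9385 was called on Tgfbr2, the type II receptor for TGF-beta, 48805 bp from the pseudogene, at chr9:116089869-116093038 in OVA. Its fold enrichment was 21 in OVA and 19.9 in PBS, where it had the lowest p of all members. Gm9204 carried a peak of Nrp1, a coreceptor for semaphorins and vascular endothelial growth factor, at chr8:128498562-128503363 in both lists, with 17.2 in OVA and 15.3 in PBS. Its distance to the assigned start was -130573 bp. Eef2-ps2, a copy of a translation elongation factor gene, carried a peak of Pdpn, which encodes podoplanin of alveolar type 1 cells, with 8.91 in OVA and 9.64 in PBS. Gm12902 carried a peak of Rragc, a Rag GTPase that couples amino acids to mTOR signalling, with 14.2 in OVA and 14.6 in PBS. Gm5857 carried a peak of Hs2st1, a heparan sulfate sulfotransferase gene, with 8.81 in OVA and 9.46 in PBS. Gm47042 carried peaks of Btbd7, a BTB domain gene, of which the strongest, chr12:102785022-102785892, had 29.4 in OVA and 27.0 in PBS. For none of these 6 did the peak touch the pseudogene named.

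The 3 highest fold enrichments of the OVA members were on peaks without a PBS counterpart. The peak assigned to Gm48352, called on 1700047I17Rik2 at chr12:55216838-55217108, had 367, that of Hmgb1-ps9 at chr13:101038630-101038778 had 202, and that of Gm2606 at chr15:12574917-12575213 had 147. The last 2 were called on the pseudogene. Each of these 3 values rests on 1 list. The next 2 had a PBS counterpart. The peak assigned to Rpl35a-ps6 was called on Wdr66, a gene of the ciliary axoneme, with a span that includes the pseudogene, at 91.9 in OVA and 15.1 in the PBS list at the same coordinates, chr5:123253805-123256040. The peak assigned to Gm12515 was called on Zfp462, a zinc finger gene, with 62.1 in OVA and 13.8 in PBS.

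In the PBS list the highest enrichments were on peaks that the OVA list also had. The peak assigned to Gm9212, called on the serotonin receptor gene Htr2a at chr14:74706196-74706587, had 68.6 in PBS and 26.0 in OVA. Gm48297 carried an Arfgef3 peak with 49.8 in PBS and 17.5 in OVA, and Gm4708 a peak of Nlrc4, an inflammasome gene, with 46.4 and 15.9. Gm11218 carried a peak of the astrotactin gene Astn2, chr4:65380802-65381550, with 44.8 in PBS and 56.1 in OVA, and its distance of -523411 bp was the longest of any member. Gm11218 also had an OVA peak called on itself, chr4:64856984-64857695, with 38.5 and no PBS counterpart. Of the 5 PBS members of highest enrichment, all but Gm12250 had been called on another gene.

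The lists of called genes were described by their counts. Cytokine, chemokine and receptor genes accounted for 4 of the 592 OVA peaks called on other genes (0.676%) and 6 of the 564 PBS peaks (1.06%), beside 0.764% and 0.726% of all other peaks. The same 4 genes were named in both lists. The peak of Il1b, which encodes the inflammatory cytokine interleukin 1 beta, was assigned to Gm14039 at a distance of -2366 bp in OVA, with a fold enrichment of 8.53 in OVA and 6.54 in PBS. The peak of the interleukin receptor gene Il1rl2 was assigned to Gm17970, with 9.28 in OVA and 9.41 in PBS. Il23r, a receptor gene assigned to Gm44083, had 25.2 in OVA, and 14.3 and 9.87 for 2 peaks of the PBS list. Il12rb2, a receptor gene assigned to Gm44050, had 3.74 in OVA, and 2.71 and 2.22 in PBS. Most bases of the 3.74 and 2.71 peaks were also under a peak called on Serbp1, an RNA-binding protein gene, with 3.67 in OVA and 2.62 in PBS. The 4 OVA peaks of this group all overlapped a PBS peak, while the PBS peaks of 9.87 and 2.22 had no OVA counterpart.

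Zinc finger genes were counted by a symbol of Zfp or Znf and a number, which leaves out others such as Zkscan1. These genes, most of which encode DNA-binding repressors that share long repeated coding stretches, accounted for 36 OVA peaks on 19 genes (6.08%, interval 4.42 to 8.30) and 32 PBS peaks on 18 genes (5.67%, 4.05 to 7.90). Of all other peaks, 3.51% in OVA and 3.66% in the PBS list were called on such genes. The median fold enrichment of these members was 9.32 in OVA and 8.88 in PBS. All 18 genes of the PBS list were among the 19 of the OVA list, and Zfp72 was the added one. Of the 21 m6A genes, which write, remove or read the mark, 17 had any OVA peak and 15 any PBS peak, but only Hnrnpc, an RNA-binding reader gene, carried a member. That peak was assigned to Gm49258 and had a low enrichment, 1.52 in OVA and 1.43 in PBS.

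Lung cell type markers were checked to see whether the lists fit the labelled tissue. Of 41 marker genes, 28 had an OVA peak and 27 a PBS peak, including all 5 alveolar type 1 and all 4 endothelial markers in both lists and 5 of the 6 alveolar type 2 markers, without Sftpc. Club and goblet cell markers had a peak for 4 of 5 genes in OVA and 3 of 5 in PBS, since Clca1 had one in the OVA list only. Of the 6 eosinophil and mast cell markers only Ccr3 had a peak, in both lists. Ciliated cell markers had a peak for 3 of 4 genes in both lists, T cell markers for 4 of 4 in OVA and 3 of 4 in PBS, B cell markers for 1 of 3 in both, and macrophage markers for 1 of 4 in OVA and 2 of 4 in PBS. Pdpn was the only marker gene with a member, the peak assigned to Eef2-ps2. A peak needs both RNA and mark, and in bulk tissue fewer cells of a type and less RNA per cell cannot be told apart.

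By parent family, most members gave no parent: 860 OVA and 805 PBS members were assigned to pseudogenes described only as a predicted gene or pseudogene. Ribosomal protein copies, among the most numerous retrocopies of mammalian genomes, had 33 OVA peaks on 22 pseudogenes and 28 PBS peaks on 23, and 9 peaks in each list had been called on the copy. High mobility group copies had 6 OVA peaks and 3 PBS peaks, all called on the copy. Pseudogenes with the words of the glycolytic enzyme list had 6 peaks in each list, among them Ldha-ps2 and the phosphoglycerate dehydrogenase copy Phgdh-ps1, whose parent belongs to serine synthesis. Copies of heterogeneous nuclear ribonucleoprotein and cytoskeleton genes had 0 peaks in both lists. Each of the remaining listed families had at most 3 peaks in a list, and other members, such as that of Bambi-ps1, name a parent outside these families.

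Symbols of the form parent and copy number named a parent for 65 OVA and 63 PBS pseudogenes, and the parent had a called peak in the same list for 26 and 22 of them. An older parent symbol, such as Fth for ferritin, goes unmatched in this count. Among pseudogenes with a peak called on themselves, the parent had a peak for 16 of 33 in OVA and 10 of 26 in PBS. A peak on the copy thus often came without a called peak on the parent. Those named in the rest of this paragraph, other than Hmgb1-ps9, were singled out after their values were seen. Hmgb1, which encodes a chromatin protein released as an alarm signal by damaged cells, had 1 OVA peak with a fold enrichment of 2.39 and no PBS peak. Its copy Hmgb1-ps1 had a peak at chr11:41142136-41142396 in both lists, with 38.5 in OVA and 8.88 in PBS, and the OVA peak of Hmgb1-ps9 had 202. The other copies were lower, with 5.32 for Hmgb1-ps5 in OVA, 6.42 in OVA and 3.16 in PBS for Hmgb1-ps6, and 3.98 and 3.75 for Hmgb1-rs16. Hmgn2-ps1, of the same family, had 2.05 in OVA, below the 2.95 of its parent Hmgn2. Bambi, which encodes a decoy receptor of the TGF-beta family, stood the other way, with 35.4 in OVA and 26.3 in the PBS list against 13.3 and 9.13 for Bambi-ps1. Fbl had up to 41.4 in OVA and 25.3 in PBS, against 4.24 and 4.50 for Fbl-ps2. Rpl10a-ps4 had 6.09 in OVA and 19.2 in the PBS list at the same coordinates, chr2:60274943-60275144, and its ribosomal parent had no peak in either list. How reads were divided between copies and parents is not given in the lists and was not tested.

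Members were found in the other list less often than other peaks. The overlap share of 73.5% in OVA (720 of 979, interval 70.7 to 76.2) stood beside 80.9% of all other peaks, a difference of -7.36 percentage points (interval -10.3 to -4.65). The share of 79.3% in PBS (722 of 911, 76.5 to 81.8) stood beside 85.8%, a difference of -6.52 percentage points (-9.31 to -3.98). The difference lay with the peaks called on the pseudogene, of which 62.0% in OVA and 67.7% in the PBS list had a counterpart, beside 81.1% and 86.3% of members called on other genes. The gap between these 2 groups was -19.1 percentage points in OVA (interval -24.8 to -13.3) and -18.6 in PBS (-24.3 to -13.0). Members called on other genes did not differ beyond counting error from other peaks whose called and assigned genes disagreed, with -2.73 points in OVA (-6.21 to 0.381) and -1.92 in PBS (-5.11 to 0.817). Peaks called on the pseudogene did not differ beyond counting error from lincRNA peaks called on their own gene either, with -2.75 points (-8.97 to 3.40) and -2.35 (-8.67 to 3.85), but were below the antisense peaks called on their own gene, with differences of -7.12 (-13.2 to -1.11) and -9.61 (-15.7 to -3.63). A counterpart nearly always kept its name: of the 720 OVA members with one, 701 overlapped a member of the PBS list and 700 a peak of the same pseudogene, and of the 722 PBS members, 709 and 708.

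The strength of the call moved with the overlap. The median log10 p, with its sign turned, was 5.04 in OVA and 4.64 in the PBS list for peaks called on the pseudogene, and 24.1 and 20.8 for members called on other genes. All peaks of a list were divided by p into 4 groups of nearly equal size, and the weakest group held 59.4% of the OVA and 57.9% of the PBS peaks called on the pseudogene, but 24.3% and 25.9% of the members called on other genes. Within that group of the OVA list, the overlap share was 47.0% (interval 40.6 to 53.4) for peaks called on the pseudogene, 48.6% (40.6 to 56.7) for members called on other genes and 47.2% for non-members. In the PBS list these were 48.3% (41.4 to 55.1), 61.0% (52.9 to 68.5) and 55.4%. In the next weakest group the shares were 80.8%, 80.8% and 79.2% in OVA and 92.3%, 87.2% and 88.4% in PBS. In the third group they were 88.9% (76.5 to 95.2), 94.8% and 96.6% in OVA and 97.8% (88.4 to 99.6), 99.3% and 98.8% in PBS. In the strongest group they were 92.3% (12 of 13 peaks, 66.7 to 98.6), 99.3% and 99.7% in OVA and 100% (10 of 10), 99.3% and 99.9% in PBS. At a like strength of call the kinds of peak were thus close in the 2 weaker groups of OVA, while peaks called on the pseudogene were lowest in its 2 stronger groups, which hold few of them, and in the weakest group of PBS. Peak length moved with the overlap too. Of 4 such groups by exonic length, in the shortest, 41.0% of the OVA and 48.0% of the PBS peaks called on the pseudogene had a counterpart, beside 47.2% and 60.0% of members called on other genes and 49.0% and 59.5% of non-members. From the next group to the longest, the shares of peaks called on the pseudogene were 73.5%, 88.5% and 96.2% in OVA, beside 80.4%, 96.3% and 99.4% of non-members. In PBS they were 78.9%, 93.9% and 100%, beside 87.7%, 97.9% and 99.7%. At a like length the shares of these peaks were thus below those of non-members in all groups but the longest of PBS, which holds 20 of them. In the second OVA group, however, their interval, 64.9 to 80.7%, held the non-member share. It ended just below that share in the longest OVA group, of 26 peaks (81.1 to 99.3%), and in the third PBS group (85.4 to 97.6%). The differences within length groups were not tested. The part of call strength and length in the difference between these kinds of peak was not tested.

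Peaks called on the pseudogene had similar enrichments with and without a counterpart. The median was 6.93 (interval 5.13 to 8.73, quartiles 3.19 and 10.8) without and 6.29 (5.79 to 7.19, quartiles 3.54 and 12.1) with a counterpart in OVA. In PBS it was 6.42 (5.10 to 7.90, quartiles 3.14 and 10.4) without and 6.22 (4.93 to 7.07, quartiles 3.41 and 11.4) with one. Members called on other genes differed here, with 3.35 without and 6.80 with a counterpart in OVA, and 3.67 and 6.42 in PBS. Of the pseudogenes with a peak called on themselves, 202 were so in both lists, or 63.3% of the OVA and 71.4% of the PBS pseudogenes, while 117 were so in the OVA list alone and 81 in the PBS list alone. Of all genes with a peak called on and assigned to them, 86.1% in OVA and 90.2% in PBS were in both lists, and of such lincRNA genes 69.3% and 75.7%. Those of 1 list had shorter peaks, with a median span of 144 bp in OVA and 120 bp in PBS, beside 240 and 238 bp for those of both lists. A single peak was all that 107 of the 117 and 76 of the 81 had, beside 154 in OVA and 157 in PBS of the 202 in both lists. The 240 OVA peaks with a counterpart called on the same pseudogene had a median fold enrichment of 6.29 in OVA, and their counterparts had 6.52 in PBS.

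Of the members without a counterpart, those with the lowest p were again mixed in kind. In the OVA list they were Gm20056, Gm48352, Hmgb1-ps9 and Gm2606, described above, and a peak assigned to Gm15936 but called on Slc5a1, a sodium-glucose cotransporter gene, at chr5:33160832-33161253 with a fold enrichment of 3.28. In the PBS list, 2 peaks assigned to Gm12242 had been called on the glutamate receptor gene Gria1, with 13.1 at chr11:57329256-57330094 and 5.23 at chr11:57327551-57328120. Both lay over 100000 bp from the pseudogene. Gm45315 had a peak called on itself, chr7:12797583-12797833, with 4.24. That peak shared bases with a PBS peak called on Gm18194, with 4.13. Gm29799 carried a peak of the cytochrome P450 gene Cyp2e1 with 3.56, and Gm9132 a peak of Swap70, a regulator of the actin cytoskeleton in lymphocytes, with 1.80. Of these PBS peaks, only that of Gm45315 lay on its pseudogene.

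The pseudogenes with the most peaks often had them from a neighbouring gene. In the OVA list, Polr2k-ps had 5 peaks, all called on the zinc finger gene Zfp652, with fold enrichments from 2.17 to 16.1, and Gm11594 had 5 called on Gpr179, a receptor-like gene of the retina, with 2.80 to 27.4. Gm47042 had 4 called on Btbd7, with 1.53 to 29.4. Gm6012 had 2 called on itself, with 5.82 and 5.44, and 3 called on Galnt7, a gene of mucin-type glycosylation, with 2.59 to 11.0. Gm9403 had 5 in each list, 2 called on Tbck and 3 on itself, and the strongest was a Tbck peak, with 17.6 in OVA and 25.7 in PBS. In the PBS list, Gm9514 had 5 peaks called on Zfp994, with 2.74 to 10.6, of which 3 had an OVA counterpart, with 6.71, 3.84 and 59 beside their 10.6, 4.51 and 4.76. Gm43493 had 4 called on the zinc finger gene Zkscan1, with 4.34 to 18.8. Gm36501 had 4 called on Zfp808, with 3.37 to 15.3, and 1 on itself, with 2.24. Gm7045 had 1 called on itself, with 10.9, and 4 called on Platr25, with 3.58 to 42.7, all of which overlapped 1 long OVA peak, chr13:62672083-62675252, with 29.3. Taken over all these pseudogenes, most peaks had thus been called on another gene, but for Gm9403 most were called on itself. Of those, the peaks with 2.83 and 2.71 in OVA and with 3.24 and 4.44 in PBS shared bases with peaks called on Gm29811. The Gm29811 peaks had 3.08 and 7.96 in OVA and 3.19 and 4.93 in PBS.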

How the data were processed

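The authors used FASTP to clean reads, HISAT2 to align them to the Ensembl mouse genome, exomePeak for peak calling and ChIPseeker to assign transcripts. The deposited fold enrichment is a ratio (fold) of IP over input, and the deposited log10 p and log10 FDR are a score of each peak. Positions, widths, block numbers and distances are other deposited values, in bp or counts. Members were taken by biotype, and the called and assigned gene were compared by identifier. Lists were compared by overlap of exonic blocks by at least 1 bp. Shares have Wilson intervals, differences Newcombe intervals and medians order-statistic intervals, at 95%. Alternatives were an FDR under 0.05, a fold enrichment of at least 2, other overlap rules and narrower sets of members. The named peaks are, in each list, the 5 of highest fold enrichment at an FDR under 0.05, the 5 of lowest p, the 5 of lowest p without a counterpart, the 5 of lowest p called on the pseudogene, and the 5 pseudogenes with the most peaks. Ties were broken by lowest p, then highest fold enrichment, then list order, and the last pseudogene of the 5 came from a tie at 4 peaks, of 16 in OVA and 14 in PBS. Members and lists were chosen with earlier results of these data known, and the splits by p and by length after results were seen. RefSeq gave gene classes, positions and promoter windows. Python 3.11.15, numpy 2.4.6, pandas 2.3.3 and scipy 1.17.1 were used, and the code was tested on simulated data.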

Additional observations from a re-analysis of the deposited data

How the results depend on the processing

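Of 60 alternatives over both lists, 38 stayed within the main interval, or within 1.5 times the main count, and none reversed a difference. An FDR under 0.05 and overlap of genomic spans moved none of the values they were tried on. With only peaks of at least 2-fold enrichment, the median fold enrichment rose to 6.80 in OVA and 6.79 in PBS, since the filter removes low values. With only members called on the pseudogene, the count was 387 in OVA and 347 in PBS, the overlap share 62.0% and 67.7%, and the difference from all other peaks -18.9 and -18.1 percentage points. With only members annotated to an exon of the pseudogene, the count was 382 and 345, the overlap share 62.3% and 67.5%, and the difference -18.6 and -18.2. With an overlap of 50% of both peaks, the share was 58.0% and 61.9% and the difference -10.9 and -10.1. With identical coordinates, the share was 8.58% and 9.22%, and the difference of -1.74 (interval -3.38 to 0.216) and -1.56 (-3.31 to 0.531) was within counting error. The lists hold no read counts, so the depth behind a missing counterpart is unknown, and no interval can be given for a fold enrichment. No paired analysis was possible because the lists hold no values of single mice, and the replicate numbers 1 to 3 that the labels share do not link animals.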
